A study of Homo sapiens with 4 samples.

Results

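Complement is a cascade of plasma and tissue proteins in which one protease cleaves the next. The classical pathway starts with the serine proteases C1r and C1s, the alternative pathway amplifies cleavage of C3 through factor B, and both lead to cleavage of C5 and to a lytic pore. Cells protect themselves with membrane regulators: CD46 and CD55 act on the convertases that cleave C3 and C5, and CD59 blocks the assembly of the pore. The liver makes most circulating complement, but epithelial cells of the lung also make components and carry the regulators.

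The genes described are C1R, C1S, C3, CFB, C5, CFI, CD46, CD55 and CD59, chosen by name as rows of the deposited count table whose Ensembl identifiers carry these symbols in GENCODE 29. All 9 were found among 58735 identifiers, and 8 of them were among the 17030 genes that passed the filter on low counts and were tested. All 8 reached the filter in both groups. CFI was below it. Members and the lists used below were chosen with earlier results of these data known, so their tallies are descriptive.

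RNA-seq was done on A549, an established human lung adenocarcinoma line, in 4 libraries. The 2 UHRF1 KO libraries came from cells given a guide RNA against UHRF1, the factor that recruits the maintenance DNA methyltransferase DNMT1. The 2 control libraries came from cells given a non-targeting guide. Guides in both groups were carried by the lentiviral vector lentiCRISPRv2-hygro and infected cells were selected with hygromycin, so the controls share vector, Cas9 and selection. The sources used here do not give the time after infection, the guide sequences or the clonal state of the cells. No label ties the replicate libraries to separate cultures, so each p-value rests on a spread between libraries that may be only technical.

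Total counts were 20020366 and 23977168 in UHRF1 KO and 18604598 and 19222886 in control. UHRF1 itself was at 39.7 ± 0.79 CPM in UHRF1 KO and 98.2 ± 0.90 CPM in control (SD, n = 2 each; CPM is counts per 1e6 counts, with library sizes scaled by TMM), 2.47-fold lower (edgeR adjusted p = 3.92e-20), with transcript still present. Across all genes tested, 32% were called higher and 30.1% lower in UHRF1 KO (19.4% and 51.4% after recentring), so a call alone says little about any gene here. Here trend removal means subtracting each library's fitted trends in GC content and exon length, and recentring means also setting every library to the same mean log2 CPM over the genes tested. Of the epithelial markers, KRT8, KRT18, KRT19 and CDH1 were abundant in all 4 libraries but were called lower in UHRF1 KO. Their log2 fold changes were -0.34, -0.43, -0.45 and -0.39 (edgeR adjusted p at most 1.79e-07). EPCAM was called higher, at 9.98 ± 1.09 CPM in UHRF1 KO and 2.21 ± 0.83 CPM in control. In bulk RNA, a change in the number of expressing cells and a change in RNA per cell cannot be told apart.

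Of the 8 members tested, 6 rose (C1R, C1S, C3, CFB, CD55 and CD59), 1 fell (C5) and 1 did not pass the test (CD46). Over all genes tested these shares were 32% higher and 30.1% lower. Among the 11003 protein-coding genes that reached 5 CPM in the higher group, as all 8 did, they were 29% and 41.1%. CFB, CD55, C3 and C1S rose at least 2-fold, as did 15.4% of all genes tested, and 0 members fell by that much, against 2.54% of all genes. The median log2 fold change of the 8 was 1.01, against 0.02 over all genes tested. The summed level of the 9 genes was 1565 and 1544 CPM in UHRF1 KO, against 803.1 and 838.3 CPM in control. All fold changes are UHRF1 KO over control from edgeR's quasi-likelihood test, adjusted over all genes tested, with a standard error (SE).

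**Figure D1:**
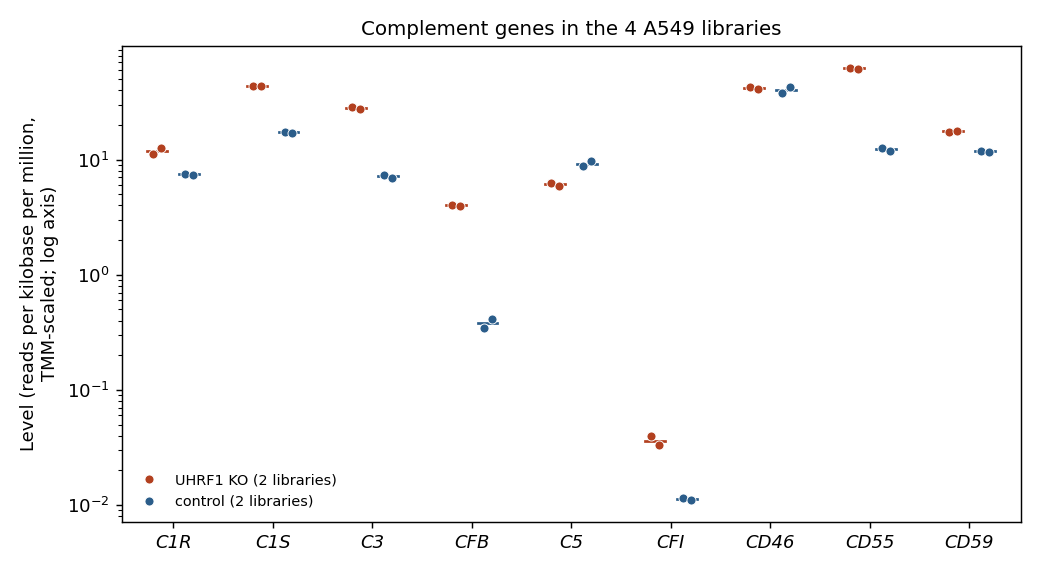
Level of the 9 complement genes in each library, in RPKM (reads per kilobase of merged exon per 1e6 reads) on a log axis. Points are libraries (UHRF1 KO left, control right, 2 each) and bars are group means. The CD46 groups overlap, and C5 is the tested gene with the lower UHRF1 KO points. CFI lies far below the others in all 4 libraries.

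The classical pathway proteases rose by unequal amounts. C1S, which cleaves C4 and C2, had 283.3 and 279.0 CPM in UHRF1 KO, against 112.2 and 110.7 CPM in control. The groups did not overlap, and the difference was 2.52-fold (log2 fold change 1.34, SE 0.041, edgeR adjusted p = 5.11e-24). C1R, which activates C1s, had 65.9 and 73.9 CPM in UHRF1 KO, against 44.2 and 43.1 CPM in control. Its rise was 1.60-fold (log2 fold change 0.68, SE 0.062, edgeR adjusted p = 2.41e-11). Per length, C1S stood at 3.92 and 3.44 times the C1R level in the UHRF1 KO libraries and at 2.31 and 2.34 times in the control libraries. The ratio was higher in both UHRF1 KO libraries, though it was not tested.

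Both genes lie on chromosome 12, on opposite strands, with 9167 bases between them (C1S at chr12:6988259-7071032 and C1R at chr12:7080199-7092607). C1R shares 672 exon bases on the same strand with C1RL, a gene for a related protease, and C1S shares 229 with EMG1. The sources used here do not state how reads in such stretches were counted. C1RL was at 67.7 ± 0.25 CPM in UHRF1 KO and 30.8 ± 1.47 CPM in control and rose 2.20-fold (edgeR adjusted p = 1.02e-16). On the far side of C1S, PHB2 fell by 0.37 on the log2 scale (edgeR adjusted p = 1.01e-09), and EMG1 was at 40.8 ± 0.094 CPM in UHRF1 KO and 53.7 ± 1.58 CPM in control. LPCAT3, which overlaps C1S on the opposite strand with 0 shared exon bases, rose 1.24-fold to 33.4 ± 0.88 CPM in UHRF1 KO, against 26.9 ± 1.81 CPM in control.

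C3, the component on which all pathways converge, rose 3.91-fold. It had 4903 and 5692 counts in UHRF1 KO, against 1100 and 1064 in control, or 236.4 and 229.0 CPM against 61.7 and 57.4 CPM. The groups lie far apart relative to the spread within each (log2 fold change 1.97, SE 0.047, edgeR adjusted p = 5.38e-27). C3 lies at chr19:6677704-6730562 on the minus strand. The nearest tested gene at lower coordinates, 7116 bases away, is the TNF family ligand gene TNFSF14, which rose to 4.62 ± 0.62 CPM in UHRF1 KO, against 0.44 ± 0.012 CPM in control (log2 fold change 3.37, edgeR adjusted p = 5.83e-11). With 8 counts in each control library it reached the filter only through UHRF1 KO. The nearest at higher coordinates, TRIP10, moved little (log2 fold change 0.25, edgeR adjusted p = 2.08e-04), and was not called after trend removal (adjusted p = 0.0685), while its value was -0.25 after recentring.

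CFB encodes factor B, the protease precursor of the alternative pathway C3 convertase, and had the largest fold change of the 8. It had 421 and 493 counts in UHRF1 KO, against 31 and 38 in control, or 20.3 and 19.8 CPM against 1.74 and 2.05 CPM. This is a 10.5-fold rise (log2 fold change 3.40, SE 0.15, edgeR adjusted p = 2.69e-19). CFB lies at chr6:31945650-31952084 on the plus strand and shares 2249 of its 4997 exon bases with the protein-coding gene AL645922.1, which had 0 counts in all 4 libraries. C2, its upstream neighbour and classical pathway counterpart, shares 23 exon bases with it. C2 was at 38 and 58 counts in UHRF1 KO, against 2 and 1 in control, a ratio of 25.5 with a 95% counting interval from 8.48 to 126.0 (edgeR adjusted p = 1.88e-08). NELFE, on the opposite strand with its 3′ end 3 bases beyond the end of CFB, fell by 0.18 on the log2 scale (edgeR adjusted p = 0.0124), a call lost without UHRF1 KO replicate 1 (adjusted p = 0.122), without control replicate 1 (adjusted p = 0.121) and with DESeq2 (adjusted p = 0.0927). ZBTB12, which lies within the span of C2 on the opposite strand, fell by 0.60 (edgeR adjusted p = 0.00366), a call lost with DESeq2 (adjusted p = 0.0856).

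The RefSeq promoter of CFB is shown because factor B is known to be induced by interferons and by inflammatory cytokines and had the largest rise. The window holds the 250 bases before the RefSeq start (GRCh38.p14, chr6:31945845-31946094, plus strand). Capitals mark matches to the interferon-stimulated response element, searched as TTTC, any 2 bases and TTTC, at 140 to 131 bases before the start, and to the interferon-gamma activated site TTCNNNGAA, at 92 to 84 bases before it.
CFB: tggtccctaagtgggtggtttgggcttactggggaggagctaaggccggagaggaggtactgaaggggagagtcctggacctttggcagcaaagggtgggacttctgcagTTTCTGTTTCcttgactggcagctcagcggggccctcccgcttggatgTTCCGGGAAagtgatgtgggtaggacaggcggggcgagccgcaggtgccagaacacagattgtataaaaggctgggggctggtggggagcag
Both strands were searched. In 35116 RefSeq promoter windows of the same length, 3.02% held a match to the first pattern and 6.57% to the second. RefSeq windows were found for 7 of the 9 genes, not for C3 and C1S, and CFB was the 1 of these 7 with the first pattern. The NF-kB pattern GGG, any 3 bases and TTCC, present in 5.67% of all windows, was in 0 of the 7, and the looser GGG, any 5 bases and CC, present in 54.4%, was in 3 (CFB, CD46 and CD55). For genes with several RefSeq starts, the window nearest to the GENCODE gene start was taken. A match is a description of letters, not evidence of a bound site.

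C5, the component whose cleavage starts the terminal pathway, was the 1 tested member that fell. It had 40.9 and 38.7 CPM in UHRF1 KO, against 57.0 and 63.2 CPM in control. The groups did not overlap, and the level was 1.51-fold lower (log2 fold change -0.60, SE 0.064, edgeR adjusted p = 1.04e-09). Such falls were common, since 30.1% of all genes were called lower. Among protein-coding genes that reached 5 CPM in the higher group the share was 41.1%. Per length, C3 was at 4.53 and 4.64 times the C5 level in UHRF1 KO and at 0.85 and 0.71 times in control, with merged exons as length. In CPM the control values of these components overlapped, and with the longest transcript as length C3 ranked above C5 in control too. C5 lies at chr9:120952335-121050276 on the minus strand between TRAF1, an NF-kB-induced signalling adaptor gene that rose 2.38-fold (log2 fold change 1.25, edgeR adjusted p = 1.35e-13), and CNTRL (log2 fold change -0.20, edgeR adjusted p = 0.0285). The CNTRL call was lost with upper-quartile scaling (adjusted p = 0.0521), without UHRF1 KO replicate 1 (adjusted p = 0.159) and with DESeq2 (adjusted p = 0.188), and its value was 0.07 after trend removal.

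The RefSeq window before the C5 start (GRCh38.p14, chr9:121050276-121050525, minus strand) is shown beside that of CFB. It has 0 CpG dinucleotides and no match to the 4 patterns. The windows taken for C1R, which rose, and CFI also had no match to these patterns. Matches to the looser NF-kB pattern are left in lower case in every window shown.
C5: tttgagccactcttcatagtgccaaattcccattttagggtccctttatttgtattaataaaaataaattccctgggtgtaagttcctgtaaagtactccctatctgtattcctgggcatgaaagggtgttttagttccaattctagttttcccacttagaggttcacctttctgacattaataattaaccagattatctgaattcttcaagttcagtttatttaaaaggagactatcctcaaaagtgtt
RefSeq lists a second C5 start further upstream, at chr9:121074866-121075115, whose window holds 28 CpG and 1 match to the looser NF-kB pattern. The counts per gene do not tell which start was used. Over all windows the median was 11 CpG, with quartiles of 3 and 23. The other members shown by RefSeq had 21 (CD46), 12 (CD55), 12 (CD59), 7 (CFB), 6 (C1R) and 1 (CFI). In the windows taken, the tested genes that rose had 6 to 12 CpG where one was found, but the other RefSeq starts of CD59 have 18, 1 and 1, and that of C1R has 7. DNA methylation was not measured in these samples.

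The membrane regulators also moved by unequal amounts. CD55, the decay-accelerating factor that dissociates the convertases, had 371.5 and 363.2 CPM in UHRF1 KO, against 74.5 and 70.2 CPM in control. The rise was 5.08-fold (log2 fold change 2.34, SE 0.043, edgeR adjusted p = 3.42e-30). CD59, which blocks the terminal pore, had 178.7 and 184.6 CPM in UHRF1 KO, against 123.0 and 121.6 CPM in control, a 1.49-fold rise (log2 fold change 0.57, SE 0.043, edgeR adjusted p = 1.73e-13). It shares 629 exon bases with AL049629.2, which had 9 and 11 counts in UHRF1 KO and 2 and 2 in control. CD46, the cofactor with which factor I cleaves C3b and C4b, had 367.8 and 355.3 CPM in UHRF1 KO, against 328.6 and 370.2 CPM in control. The CD46 groups overlapped, and its log2 fold change was 0.05 with a 95% interval from -0.04 to 0.14 (edgeR adjusted p = 0.326). The value for CD46 was -0.05 without control replicate 1 (adjusted p = 0.158), 0.12 without control replicate 2 (adjusted p = 0.0015) and 0.37 after trend removal (adjusted p = 8.51e-16), so its direction is not settled here.

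CFI encodes factor I, the protease that needs such cofactors. It had 4 and 4 counts in UHRF1 KO and 1 and 1 in control. Their ratio was 3.19 with a 95% counting interval from 0.64 to 30.9. With no filter on low counts its edgeR adjusted p was 0.483, so a difference was not detectable with these counts. CFI shares 1562 of its 4875 exon bases with the protein-coding gene AC126283.2, which had 0 counts in all libraries. GAR1, the nearest tested gene at higher coordinates, fell (log2 fold change -0.80, edgeR adjusted p = 4.60e-10). At lower coordinates PLA2G12A did not pass the test (log2 fold change -0.11, edgeR adjusted p = 0.381), but was called lower after recentring (adjusted p = 0.0364).

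CD55 and CD46 belong to the cluster of complement regulators on chromosome 1 (CD55 at chr1:207321376-207386804 and CD46 at chr1:207752057-207795513), with 365253 bases between them. Their neighbours in the cluster were scarce: CR2 had 0 counts in all libraries and CR1 had 0 and 2 in UHRF1 KO and 0 in both controls. C4BPA, on the other side of CD55, is described with the fluid-phase regulators below. Beyond CD46, the microRNA host gene MIR29B2CHG rose to 11.7 ± 0.67 CPM in UHRF1 KO, against 2.17 ± 0.18 CPM in control (log2 fold change 2.43, edgeR adjusted p = 3.77e-14). CD59 lies on chromosome 11 next to FBXO3, which did not pass the test (log2 fold change 0.01, edgeR adjusted p = 0.956), and C11orf91, which had 21 and 21 counts in UHRF1 KO and 2 and 2 in control. The FBXO3 value was 0.33 (adjusted p = 8.34e-05) after trend removal and from -0.07 to -0.004 under the 5 alternatives that turned its sign.

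The RefSeq windows of CD55 (GRCh38.p14, chr1:207321428-207321677, plus strand) and CD59 (GRCh38.p14, chr11:33736480-33736729, minus strand) are shown because these GPI-anchored regulators rose by such different amounts. Capitals mark the single match to TTCNNNGAA, at 128 to 120 bases before the CD59 start.
CD55: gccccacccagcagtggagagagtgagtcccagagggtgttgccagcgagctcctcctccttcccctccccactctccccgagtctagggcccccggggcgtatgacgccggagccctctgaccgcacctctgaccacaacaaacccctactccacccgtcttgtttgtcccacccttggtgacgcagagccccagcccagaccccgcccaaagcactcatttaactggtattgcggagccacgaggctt
CD59: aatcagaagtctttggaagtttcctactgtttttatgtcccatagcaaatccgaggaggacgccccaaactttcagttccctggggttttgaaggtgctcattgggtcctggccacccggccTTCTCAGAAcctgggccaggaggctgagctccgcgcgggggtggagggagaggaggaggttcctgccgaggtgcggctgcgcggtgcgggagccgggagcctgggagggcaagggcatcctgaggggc
Each window has 12 CpG, and the other RefSeq starts of CD59 have 18, 1 and 1. The CD55 window has no match to the interferon patterns and 1 to the looser NF-kB pattern. A link between these letters and the rises was not tested.

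Per length of merged exon, CD55 was the highest of the 9 in UHRF1 KO at 62.2 ± 0.99 RPKM, followed by C1S at 43.5 ± 0.47 and CD46 at 41.5 ± 1.01. C3 came next at 27.9 ± 0.63, then CD59 at 17.5 ± 0.40, C1R at 11.9 ± 0.96, C5 at 6.10 ± 0.24, CFB at 4.02 ± 0.066 and CFI at 0.036 ± 0.0046 (SD, n = 2). In control CD46 was highest at 40.1 ± 3.37 RPKM, followed by C1S at 17.2 ± 0.16. CD55 at 12.2 ± 0.52 and CD59 at 11.8 ± 0.098 were closer to each other than the CD55 spread. C5 at 9.20 ± 0.66 was above C1R at 7.42 ± 0.14 and C3 at 7.15 ± 0.37, whose libraries overlapped, and CFB at 0.38 ± 0.044 and CFI at 0.011 ± 0.00032 were last. The places of members such as CFB and CFI depend on how reads in exons shared with other genes were counted, which is not stated. By these levels CD55 stood above CD46 in both UHRF1 KO libraries and below it in both control libraries. C3 stood above C5 in both UHRF1 KO libraries, whereas its place in control depended on the length used, being rank 7 against rank 5 for C5 with merged exons and rank 6 against rank 7 with the longest transcript.

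**Figure D2:**
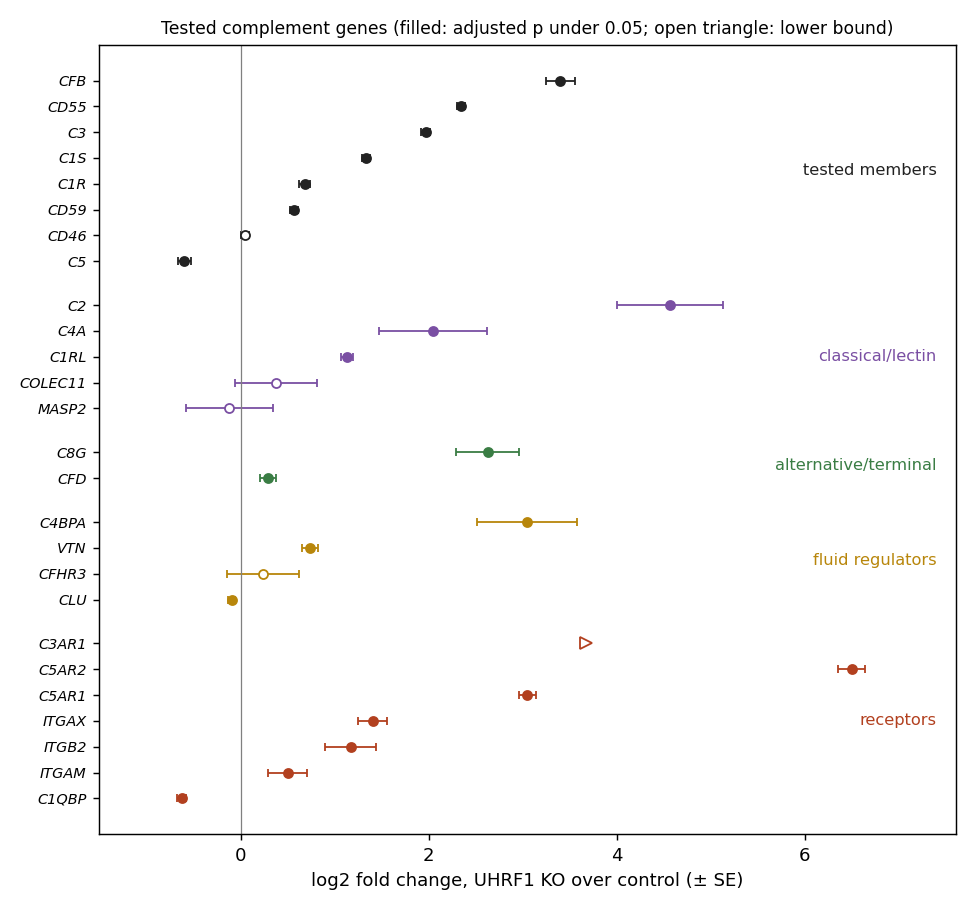
Log2 fold change, UHRF1 KO over control, of the 8 tested members and 18 further complement genes, with bars of 1 SE. Filled points passed an adjusted p under 0.05, and the open triangle is a lower bound for C3AR1, which had 0 control counts. C5AR2 and C2 lie furthest to the right among the points, and C5, C1QBP and CLU are the called genes left of 0.

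Other complement genes were read from 4 lists of 44 genes in all. Of these, 18 were tested, while 14 had 0 counts everywhere. Of the 18, 13 rose and 2 fell, against 32% and 30.1% of all genes tested. C2, C4A, C8G, C4BPA and C3AR1 reached the filter only because of their UHRF1 KO counts and so were selected for higher values there. The tally is therefore descriptive. The receptors of the cleavage product C5a stood out in size. C5AR2 had 64.4 and 60.9 CPM in UHRF1 KO, against 0.84 and 0.54 CPM in control. The rise was 90.3-fold (log2 fold change 6.50, SE 0.14, edgeR adjusted p = 3.50e-28). It rests on control counts of 15 and 10, near the filter, against 1336 and 1513 in UHRF1 KO. C5AR1 had 51.7 and 55.7 CPM in UHRF1 KO, against 6.84 and 6.14 CPM in control, an 8.28-fold rise (log2 fold change 3.05, SE 0.094, edgeR adjusted p = 7.37e-24). These 2 genes lie 10081 bases apart on chromosome 19. The receptor of C3a, C3AR1, had 29 and 19 counts in UHRF1 KO and 0 in both controls, at least 12.8-fold higher against a floor of 3 counts over both controls. The ligand precursor C5 was lower in the same libraries in which its receptors were higher.

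The integrin chains of complement receptors 3 and 4 were low. ITGAX rose 2.65-fold to 11.4 ± 1.49 CPM in UHRF1 KO, against 4.29 ± 0.51 CPM in control, and ITGB2 rose 2.25-fold to 3.35 ± 0.16 CPM, against 1.49 ± 0.59 CPM in control. ITGAM was called higher (log2 fold change 0.50, edgeR adjusted p = 0.0341), but its libraries overlapped. It was no longer called without UHRF1 KO replicate 2 (adjusted p = 0.457), without control replicate 2 (adjusted p = 0.439), with DESeq2 (adjusted p = 0.322), with limma-voom (adjusted p = 0.0577) and after recentring (adjusted p = 0.611). C1QBP, a mostly mitochondrial protein named for its binding to C1q, fell 1.54-fold to 184.7 ± 7.51 CPM in UHRF1 KO, against 285.5 ± 25.1 CPM in control (edgeR adjusted p = 9.04e-12).

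Of the other early components, the C1q chain genes C1QA and C1QB had 0 counts in all 4 libraries and C1QC had 1 in a single UHRF1 KO library, so the proteases C1R and C1S were expressed without detectable C1q transcripts. Here 3 counts over both UHRF1 KO libraries would be 0.0658 CPM. C4A had 18 and 19 counts in UHRF1 KO and 3 and 4 in control (log2 fold change 2.04, edgeR adjusted p = 0.00266), a call lost with DESeq2 (adjusted p = 0.103). C4A and C4B are near-identical, so their split is uncertain. COLEC11 and MASP2 did not pass (edgeR adjusted p = 0.470 and 0.841). In the terminal pathway C8G rose 6.17-fold to 3.24 ± 0.42 CPM in UHRF1 KO, against 0.52 ± 0.10 CPM in control, while C6, C8A and C8B had 0 counts. CFD, which cleaves factor B, was at 22.6 ± 0.57 CPM in UHRF1 KO and 18.5 ± 0.45 CPM in control (log2 fold change 0.29, edgeR adjusted p = 0.00508). Its value was -0.09 after trend removal (adjusted p = 0.411) and -0.45 after recentring (adjusted p = 1.50e-05), and DESeq2 did not call it (adjusted p = 0.162).

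Among fluid-phase regulators, VTN, which inhibits the terminal complex, rose 1.67-fold to 33.7 ± 1.54 CPM in UHRF1 KO, against 20.2 ± 1.30 CPM in control (edgeR adjusted p = 2.01e-09), a call lost after recentring (adjusted p = 0.165). C4BPA had 32 and 32 counts in UHRF1 KO and 3 and 3 in control (log2 fold change 3.05, edgeR adjusted p = 8.14e-06). CFHR3 did not pass (edgeR adjusted p = 0.613), and the near-identical copies of its family make its counts uncertain. CLU, the most abundant of the list, was called lower by 0.09 on the log2 scale (edgeR adjusted p = 0.0285), a call lost in 7 of 13 alternative fits with adjusted p up to 0.245.

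**Figure D3:**
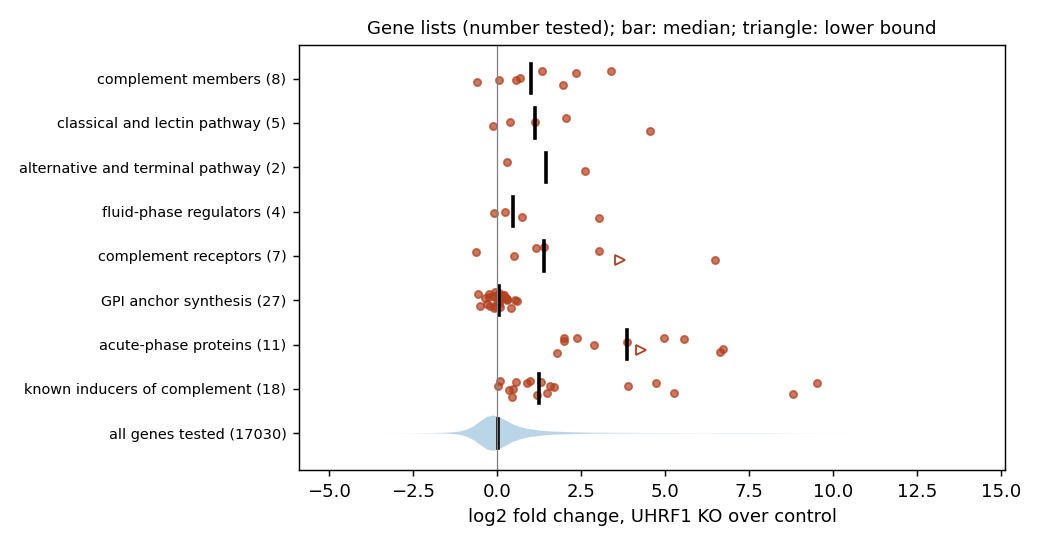
Log2 fold change of each tested gene in the complement lists and related lists, with black bars at list medians and a violin for all 17030 genes tested. Open triangles are lower bounds for genes with 0 control counts. Acute-phase genes all lie right of 0 with a median of 3.88, GPI anchor genes lie around 0 with a median of 0.06, and all genes have a median of 0.02.

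Among genes that go with complement in an acute-phase response, 11 of 18 were tested. All 11 rose at least 2-fold, against 15.4% of all genes tested. Among these, 6, including SAA1, SERPINA1 and LCN2, reached the filter only through UHRF1 KO. Such genes were selected for higher values there. The 7 untested genes include CRP, HP and SERPINA3, which had at most 4 counts in any library. SAA1, serum amyloid A, had 167 and 199 counts in UHRF1 KO and 3 and 3 in control (log2 fold change 5.55, edgeR adjusted p = 3.06e-16). Its near-identical copy SAA2 makes the split uncertain. LBP, the lipopolysaccharide-binding protein gene, rose 14.7-fold to 13.8 ± 0.37 CPM, against 0.94 ± 0.18 CPM in control. SERPINA1 had 189 and 237 counts in UHRF1 KO and 2 and 1 in control, and LCN2 had 203 and 198 in UHRF1 KO and 0 and 3 in control, with ratios of 113.3 (95% counting interval 38.5 to 551.6) and 106.7 (36.2 to 519.4).

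Of 19 cytokines and transcription factors known to induce complement genes, 18 were tested, 16 rose and 0 fell, against 32% and 30.1% of all genes tested. Of the 18, 3 (IL1B, TNF and OSM) reached the filter only through UHRF1 KO and so were selected for higher values there. All 18 fitted values were above 0, so edgeR gave 0 lower at an unadjusted p too, and DESeq2 and limma-voom called 0 lower, but 3 were called lower after recentring. The cytokine genes IL1A and IL1B rose 26.5-fold and 38.3-fold, to 18.4 ± 0.95 and 20.2 ± 0.43 CPM in UHRF1 KO, against 0.69 ± 0.020 and 0.52 ± 0.054 CPM in control. TNF had 291 and 404 counts in UHRF1 KO and 0 and 1 in control, and OSM, which encodes oncostatin M, had 911 and 1154 against 1 and 1. IFNG had 0 counts in all libraries. These genes were higher in the same 2 libraries as the complement genes, and a link between them was not tested.

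CD55 and CD59 are held in the membrane by a GPI anchor, and the genes that make the anchor were read as a list. Of 27 tested, 8 rose and 7 fell, against 32% and 30.1% of all genes tested. None moved by 2-fold or more, and the median log2 fold change was 0.06. On the log2 scale PIGQ was higher by 0.60 and PIGS by 0.41, while PIGU fell by 0.57 and DPM3 by 0.51. The PIGS call was lost after recentring (adjusted p = 0.0510), where 2 were higher and 15 lower, against 19.4% and 51.4% of all genes.

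Markers of other cell types were also measured. Their summed levels were 1.25 and 1.77 CPM in UHRF1 KO against 0.62 and 0.75 CPM in control for 7 hepatocyte genes, and 7.09 and 7.24 against 2.19 and 2.26 CPM for 8 monocyte and macrophage genes. For 6 fibroblast genes they were 22.8 and 24.2 CPM in UHRF1 KO against 3.93 and 5.77 CPM in control, and for 5 endothelial genes 30.3 and 31.3 against 0.67 and 0.22 CPM. Of the 6 marker genes of these lists that could be tested, ALB, CD14, COL1A1, COL1A2, LUM and PECAM1, all were called higher. Of these, ALB, COL1A2, LUM and PECAM1 reached the filter only through UHRF1 KO and so were selected for higher values there. PECAM1 made up most of the endothelial sum at 29.9 ± 0.89 CPM in UHRF1 KO, against 0.25 ± 0.20 CPM in control, a 118.1-fold difference that put it above CFB in CPM. The macrophage marker AIF1 had 0 counts in all libraries, the leukocyte marker PTPRC had 10 and 20 counts in UHRF1 KO and 0 in control, and the endothelial cadherin CDH5 had 3 and 0 in UHRF1 KO and 0 in control. The part of these markers in the complement values was not tested.

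**Figure D4:**
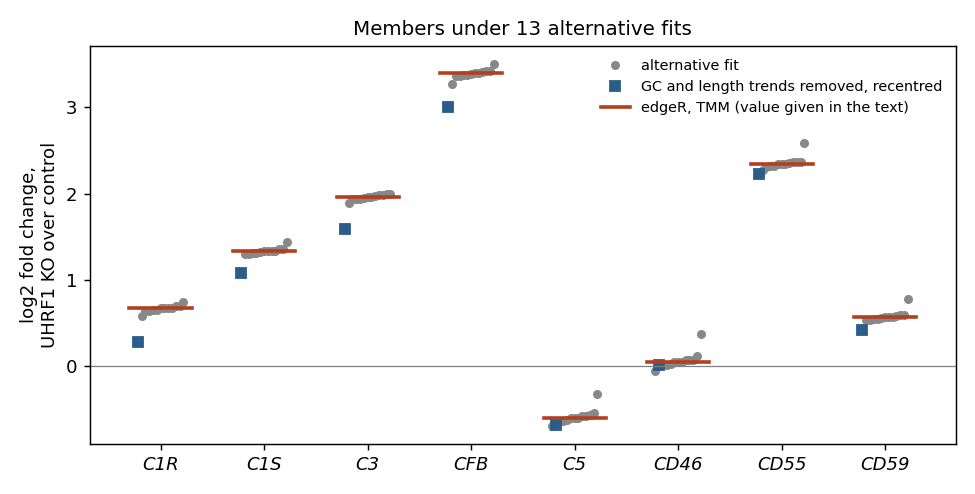
Log2 fold change of the 8 tested members under 13 alternative fits (grey points, and blue squares for recentring), with red bars for the values given in the text. Every point of C1R, C1S, C3, CFB, CD55 and CD59 lies above 0 and every point of C5 below 0, while CD46 has points on both sides.

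The 6 rises and the fall of C5 were called in the same direction in all 13 alternative fits of the whole table. On the log2 scale the ranges were 3.005 to 3.50 for CFB, 2.22 to 2.58 for CD55, 1.59 to 2.00 for C3 and 1.08 to 1.44 for C1S. CD59 ranged from 0.42 to 0.78, C1R from 0.28 to 0.75 and C5 from -0.69 to -0.33. The lowest values of the 6 rises came from recentring, a scaling that shifted the median of all genes to -0.28 and gave 19.4% of genes higher and 51.4% lower.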

How the data were processed

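RNA-seq read counts per gene were deposited for 2 UHRF1 KO and 2 control libraries. Per the submitters' processing notes, FastQC 0.10.1 and the build GRCh38 were used; the sources used here do not give the aligner, counting tool, annotation, strand use or treatment of reads with several matches. The deposited values are whole-number counts, not normalized by the authors. All 58735 identifiers matched GENCODE 29. The description of both controls carries number 1, so control columns were matched by the number in the sample titles; their group is certain.

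The tests used edgeR 4.0.16 under R 4.3.3 (filterByExpr, TMM, robust quasi-likelihood test, two-sided, Benjamini-Hochberg over 17030 genes, threshold 0.05), after the step was checked on simulated data. Each SE was taken as |log2 fold change| divided by the root of F. Alternatives used DESeq2 1.42.0, limma 3.58.1, other scalings and filters, GC content and length trends fitted with mgcv 1.9.3, the replicate block, and each library left out. The 95% counting intervals (exact, conditional) and floors cover counting error only, since reads carry no molecular identifiers. Per-length levels use merged exons.

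Members and lists were chosen with earlier results of these data known. Genes named are the 9 members, UHRF1, tested genes of the 4 other complement lists and most of the nearest tested or overlapping genes. Up to 4 called genes of each related list with the largest change at 5 CPM or more are also named. The neighbouring genes C1RL-AS1, GPR108 and AC008760.2 were called higher but are not described further, nor are overlapping pseudogenes. The C1RL-AS1 call was lost after recentring (adjusted p = 0.245). Planned protein comparisons were not made; promoter sequences are from RefSeq (GRCh38.p14). The stricter NF-kB pattern was added after the looser one was seen to match most windows. One planned list member is not reported here.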

Additional observations from a re-analysis of the deposited data

How the results depend on the processing

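Of the 8 tested members, 7 kept direction and call in all 13 alternative fits. CD46 ranged from -0.054 without control replicate 1 to 0.12 without control replicate 2 and rose to 0.37 once GC content and length trends were taken out. The replicate numbers gave a correlation of -0.084 between same-numbered deviations and nothing says they mark shared cultures; with the replicate number as a block 6 members were called higher and 1 lower, as without it, and the CLU fall was lost (adjusted p = 0.0526).

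With a minimum of 2-fold, members called lower became 0, as did receptors, fluid-phase regulators and GPI anchor genes called lower and GPI anchor genes called higher, while alternative and terminal genes and fluid-phase regulators called higher became 1 each and inducers 10. Fluid-phase regulators called lower were 0 with upper-quartile factors, a 1 CPM minimum, the replicate block, trends removed and an adjusted p under 0.01, were 2 with no filter, and ranged from 0 to 2 with a library left out, where those called higher ranged from 2 to 3. Alternative and terminal genes called higher were 1 with DESeq2, with trends removed and with recentring, which also gave 1 lower. Recentring left 1 fluid-phase regulator higher, 2 GPI anchor genes higher and 15 lower, and 3 inducers lower. GPI anchor genes called higher were 5 with no filter and with an adjusted p under 0.01, and 4 with DESeq2. With the longest transcript as length, C3, C5 and C1R ranked 6, 7 and 5 in control, against 7, 5 and 6 with merged exons, so C3 lay above C5 in control only with the longest transcript.

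Among other named genes the sign turned for COLEC11 (-0.21) and TRIP10 (-0.25) with recentring, for MASP2 with a library left out (-0.51 to 0.15), for CFD with trends removed (-0.087) and recentring (-0.45), for CNTRL (0.069) and PLA2G12A (0.12) with trends removed, and for FBXO3 with no filter (-0.027), DESeq2 (-0.019), recentring (-0.029) and a library left out (-0.070 to 0.041). The cause was not tested. At the control depth 3 counts over both libraries are 0.0825 CPM, which limits CFI, C2, C4A and C3AR1.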
